A study of Mus musculus with 12 samples.

Results

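Genes of the BCL2 family, which set the threshold at which a cell enters the mitochondrial route to apoptosis, were followed through macrophages and fibroblasts. The 10 members were chosen by symbol: the survival genes Bcl2, Bcl2l1 and Mcl1, the pore formers Bax and Bak1, and the BH3-only genes Bcl2l11, Bid, Bad, Bbc3 and Pmaip1. All 10 were present among the 32544 genes of the count table, and all 10 were among the 14285 kept by the filter on low counts. RNA had been sequenced from bone marrow-derived macrophages (BMDMs) 24 h after seeding and from 3T3 cells, a mouse fibroblast line, after 72 h in medium that BMDMs had conditioned, with 3 libraries in each of 4 groups. The BMDM groups were labelled WT and PHD2cko. Both came from LDL receptor-deficient C57Bl6/J mice carrying LysMCre, and both were matured in L929-conditioned medium. LysMCre is a Cre recombinase active in macrophages, monocytes and neutrophils, and PHD2cko mice also carried the conditional allele of Egln1, which encodes the oxygen sensor PHD2. The fibroblasts were starved of serum first, and their groups differed in whether the medium came from WT or from PHD2cko BMDMs, and the oxygen condition of the sequenced cultures was not given.

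BCL2, BCL-XL (from Bcl2l1) and MCL1 hold BAX and BAK in check at the outer mitochondrial membrane. BH3-only proteins either occupy the survival proteins or activate BAX and BAK directly, after which the membrane opens, cytochrome c is released and caspases are switched on. MCL1 is a protein with a very short life, and PMAIP1 (NOXA) binds MCL1 with preference. BAX, BBC3 (PUMA) and PMAIP1 are classical products of p53 target genes. PHD2 marks the hypoxia-inducible factors (HIF) for destruction when oxygen is present.

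Library totals ranged from 15516465 to 25199770 estimated counts with a median of 18090343. Egln1 was at 55.8, 54.7 and 55.5 CPM (counts scaled to a common library size, normalised by TMM) in WT BMDMs and at 68.8, 68.3 and 71.6 CPM in the libraries labelled PHD2cko. The targeted gene was thus higher in every library labelled PHD2cko (log2 fold change 0.33, SE 0.0527, adjusted p = 0.00203, edgeR), and the gene-level counts do not separate reads of the deleted part. The 23 macrophage markers summed to 47423 to 48646 CPM in WT BMDMs and to 42549 to 44122 CPM in those labelled PHD2cko, to 22.2 to 23.2 CPM in fibroblasts in WT medium and to 221 to 1001 CPM in fibroblasts in PHD2cko medium, with none of the markers at 0 in all libraries of a group. The 11 fibroblast markers summed to 22887 to 24905 CPM in fibroblasts in WT medium, to 29976 to 30905 CPM in PHD2cko medium and to 1.65 to 5.70 CPM in BMDMs, where Lum was at 0 in all WT libraries. Neither sum overlapped between the labels within its own cell type, and their part in the results was not tested. The 8 neutrophil and precursor markers summed to at most 0.778 CPM in any library, with Ly6g at 0 in all 12. Among replicates, fibroblasts in WT medium replicate 1 stood apart. Compared by chi-square over genes, divided by the degrees of freedom, its counts gave 23.1 and 24.9 against the other replicates of its group, which gave 2.29 against each other. Nothing in the labels says that replicates were separate animals or cultures, so p-values measure the spread between these libraries, which may be technical. In bulk RNA, fewer cells of a type and less RNA per cell cannot be told apart.

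The promoters of Bcl2, Bax and Bcl2l11 are shown because these were the 3 members past the threshold in fibroblasts. Each window runs from 250 bases before the RefSeq start to 50 after it (GRCm38.p6), 5′ to 3′ on the gene's strand, with capitals at matches to the HIF core ACGTG or GCGTG on either strand and at the p53 half-site. Bcl2 lies on chromosome 1 from 106538178 to 106714274 on the minus strand, and its window is chr1:106714241-106714540. Bax lies on chromosome 7 from 45461697 to 45466898 on the minus strand, and its window is chr7:45466849-45467148. Bcl2l11 lies on chromosome 2 from 128126038 to 128162547 on the plus strand, and the window shown, at the first of its RefSeq starts, is chr2:128125788-128126087.
Bcl2: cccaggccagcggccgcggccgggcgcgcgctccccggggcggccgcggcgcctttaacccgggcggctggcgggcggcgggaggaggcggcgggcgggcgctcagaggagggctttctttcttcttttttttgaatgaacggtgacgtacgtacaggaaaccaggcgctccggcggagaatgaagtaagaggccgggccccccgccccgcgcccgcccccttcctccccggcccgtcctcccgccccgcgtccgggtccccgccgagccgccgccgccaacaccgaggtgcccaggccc
Bax: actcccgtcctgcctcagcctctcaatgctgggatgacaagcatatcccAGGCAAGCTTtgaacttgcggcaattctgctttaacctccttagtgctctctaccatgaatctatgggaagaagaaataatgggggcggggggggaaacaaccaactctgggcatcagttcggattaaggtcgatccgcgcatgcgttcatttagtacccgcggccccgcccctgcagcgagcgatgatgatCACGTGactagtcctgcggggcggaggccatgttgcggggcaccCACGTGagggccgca
Bcl2l11: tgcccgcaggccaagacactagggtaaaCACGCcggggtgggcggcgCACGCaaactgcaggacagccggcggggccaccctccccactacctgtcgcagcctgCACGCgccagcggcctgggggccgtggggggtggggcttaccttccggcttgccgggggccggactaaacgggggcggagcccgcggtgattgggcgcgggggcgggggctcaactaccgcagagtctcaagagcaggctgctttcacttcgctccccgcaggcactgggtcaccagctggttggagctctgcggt

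The Bcl2 window held no match to the HIF core and none to the p53 half-site. In the Bax window the core was found at 2 places, beginning at positions −9 and 35 from the start base, and both were within the palindrome CACGTG. The Bax window also held the p53 half-site, beginning at position −201. In the Bcl2l11 window the core was found at 3 places, at positions −222, −203 and −146. The other Bcl2l11 window, chr2:128127325-128127624 at a later RefSeq start, held none. Over 15 windows of 9 members, 9 windows held the core, against 43.8% of all 32851 promoter windows, and 1 held the p53 half-site, against 8.36%. The palindrome CACGTG, which contains the core, was in 2 of the 15 windows and in 7.15% of all. Member windows had a median GC content of 65.7%, against 52.7% over all windows.

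Levels of different members can be compared only per length, so CPM were divided by the length of the longest annotated transcript. In WT BMDMs Mcl1 led the family with 365 ± 5.13 CPM per kilobase (SD, n = 3), followed by Bax with 119 ± 2.24, Bak1 with 41.1 ± 1.08 and Bcl2l11, which encodes BIM, with 36.0 ± 0.953. Bad was at 19.9 ± 0.609, Bbc3 at 18.0 ± 0.422, Bid at 16.8 ± 1.33, Bcl2l1 at 13.9 ± 0.367 and Pmaip1 at 10.8 ± 0.478 CPM per kilobase. Bcl2 was last, at 0.473 ± 0.101 CPM per kilobase, and the mean of Mcl1 stood 773-fold above it. Only Bbc3 and Bid overlapped as neighbours in this order.

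In fibroblasts in WT medium the order was led by Bax, at 66.0 ± 8.64 CPM per kilobase, with Mcl1 at 29.4 ± 1.61, Bak1 at 20.4 ± 1.02 and Bad at 17.2 ± 1.97. Bcl2l1 was at 10.5 ± 1.60, while Bbc3, Bid and Bcl2l11, at 6.69, 5.98 and 5.27 CPM per kilobase, overlapped with their neighbours. Bcl2 was at 1.17 ± 0.0874 and Pmaip1 was last at 0.205 ± 0.0707 CPM per kilobase. Bax, Mcl1, Bak1, Bad and Bcl2l1 kept the first 5 places in fibroblasts in PHD2cko medium, and Mcl1, Bax, Bak1, Bcl2l11 and Bad kept them in BMDMs labelled PHD2cko. With the mean transcript length in place of the longest, 5 of 10 members held their place in each BMDM group and 8 of 10 in each fibroblast group, and no member moved by more than 2 places.

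**Figure D1:**
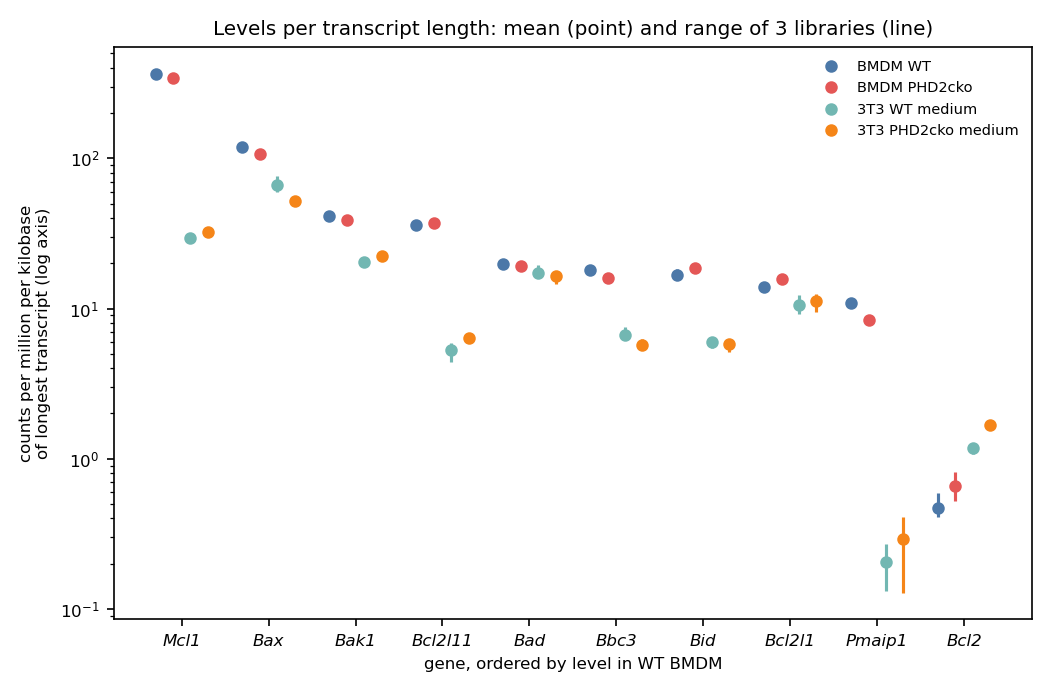
Levels of the 10 genes in CPM per kilobase of the longest transcript on a log axis, with the mean of 3 libraries as a point and their range as a line for each of the 4 groups. Mcl1 stands highest in both BMDM groups and Bax in both fibroblast groups, and Pmaip1 drops from 10.8 in WT BMDMs to 0.205 in fibroblasts in WT medium.

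The cell types were set against each other to show where the family differs most. WT BMDMs held 10 of 10 members at a different level than fibroblasts in WT medium, at an adjusted p under 0.05, against 85.3% of all genes tested. Adjusted p-values are from the quasi-likelihood test of edgeR, corrected over all genes, unless another tool is named. Of these, 9 members were higher in BMDMs, against 40.4% of all genes, and 1 was lower, against 44.9%. Cell type, culture and time after seeding cannot be told apart in this comparison. Bcl2, the founding survival gene, was the member lower in BMDMs, with 2.92, 4.24 and 3.04 CPM against 7.68, 8.81 and 8.72 CPM in fibroblasts. Its log2 fold change was −1.30 (SE 0.162, adjusted p = 5.3e-06), and the groups did not overlap.

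Mcl1, the short-lived survival gene, stood at 1265, 1251 and 1230 CPM in WT BMDMs and at 107, 97.9 and 96.5 CPM in fibroblasts. This was a 12.4-fold difference (log2 3.64, SE 0.0644, adjusted p = 1.5e-14). Pmaip1, which encodes the MCL1 binder NOXA, had 477, 480 and 468 counts in WT BMDMs and 7, 16 and 14 counts in fibroblasts. It differed by 52.1-fold (95% confidence interval 39.1 to 69.4), the widest gap of the family. Bcl2l11 was 6.81-fold higher in BMDMs (95% confidence interval 6.04 to 7.69). Pmaip1, Mcl1 and Bcl2l11 had the 3 largest differences among members. Their direction was that of 9 of the 10 members.

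The other members differed less. The BH3-only genes Bid and Bbc3 were 2.80-fold and 2.69-fold higher in WT BMDMs, and the pore formers Bak1 and Bax 2.02-fold and 1.81-fold. Bcl2l1, which encodes BCL-XL, was 1.32-fold higher (log2 0.40, SE 0.110, adjusted p = 0.00438). Bad had 29.7, 30.4 and 31.6 CPM in BMDMs and 29.9, 24.6 and 24.7 CPM in fibroblasts, and was the member whose groups overlapped (log2 0.22, SE 0.0857, adjusted p = 0.0319). The other 9 members did not overlap, against 85.1% of all genes. Bad passed the threshold under 6 of 8 other ways of processing and lost it with a minimum of 10 counts per library (adjusted p = 0.101) and with no filter. It was also lost without WT BMDM replicate 2 or 3 and without WT medium replicate 2 or 3, with adjusted p-values from 0.0612 to 0.133.

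**Figure D2:**
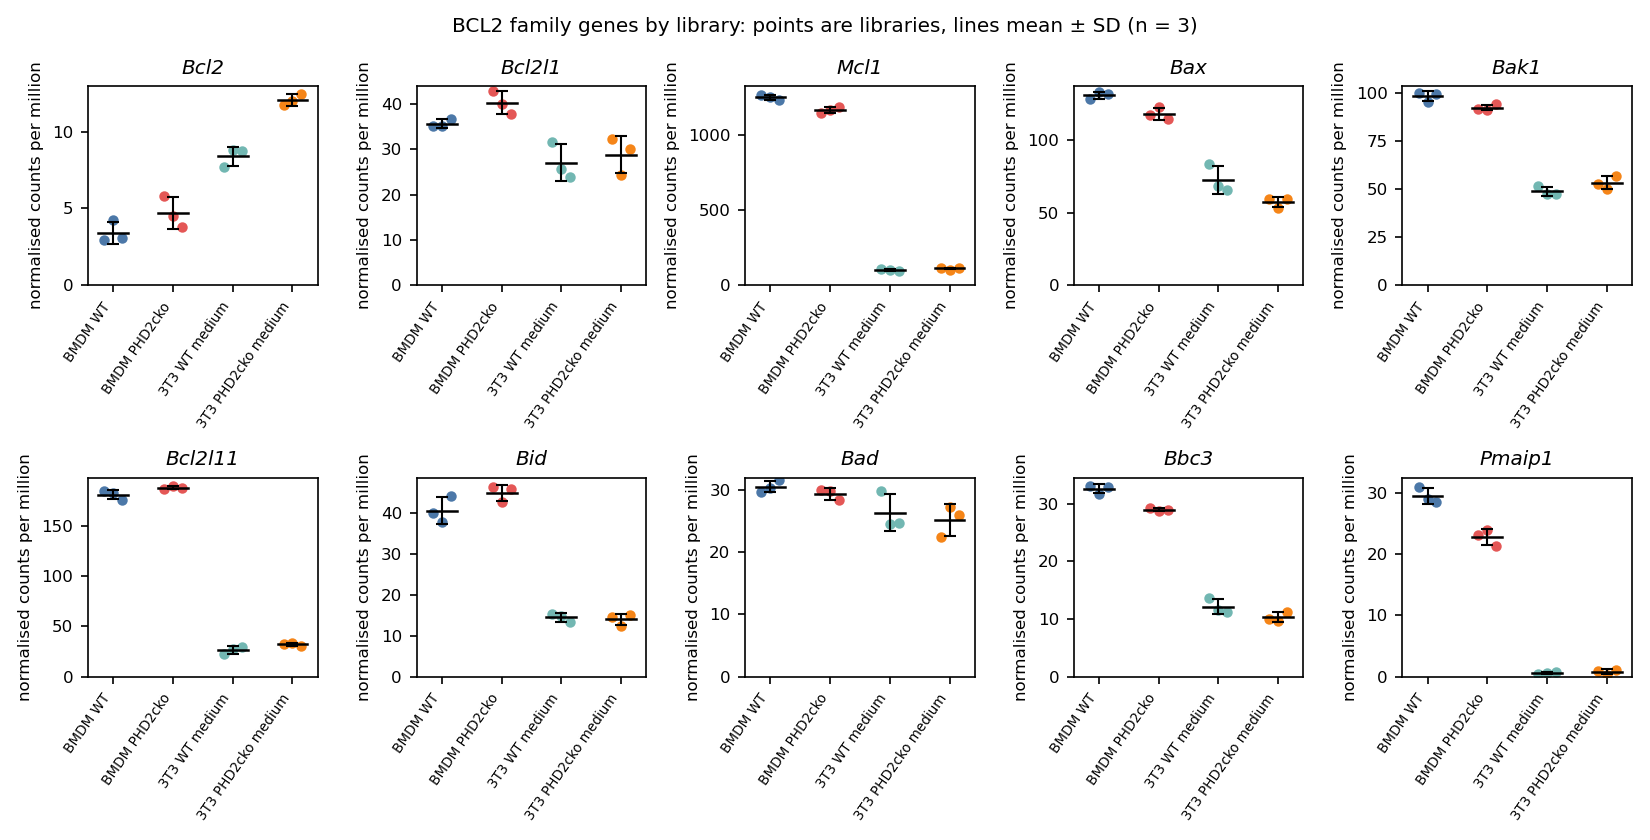
CPM of each of the 10 genes in every library, with axes starting at 0, points for the 3 libraries of a group and black lines for the mean ± SD. Bcl2 is the gene higher in fibroblasts than in BMDMs, and Pmaip1 lies at or under 1.11 in every fibroblast library.

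Whether the PHD2cko label went with a changed balance of survival and death genes in macrophages was asked first. None of the 10 members passed the threshold in BMDMs by edgeR, against 6.73% of all genes tested (3.38% higher and 3.35% lower). At an unadjusted p under 0.05 there were 3 members, Bcl2, Bbc3 and Pmaip1, against 19.0% of all genes. DESeq2 and limma-voom each called 1 member, Pmaip1, against 7.88% and 7.46% of all genes. The median log2 fold change of the members was −0.07, against 0.00022 over all genes, with 4 members above and 6 below 0. The groups did not overlap for 7 members, against 31.9% of all genes, and the differences were small.

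Pmaip1 had 31.0, 29.1 and 28.5 CPM in WT BMDMs and 23.2, 23.9 and 21.3 CPM in the libraries labelled PHD2cko, so every library labelled PHD2cko lay below every WT library. The log2 fold change was −0.37 (SE 0.116, 95% confidence interval −0.63 to −0.12, adjusted p = 0.0806), which missed the threshold. It passed with DESeq2 (adjusted p = 0.0122), with limma-voom (adjusted p = 0.0195) and when the 6 BMDM libraries were fitted alone (adjusted p = 0.000484). The log2 fold change was −0.38 in each of these fits. Fibroblast libraries enter the BMDM test through the shared spread, and Pmaip1 passed without WT medium replicate 1 (adjusted p = 0.0173) or PHD2cko medium replicate 2 (adjusted p = 0.0143). In the other 10 fits with a library left out it did not pass, with adjusted p-values from 0.0698 to 0.275.

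Bcl2 was at 2.92, 4.24 and 3.04 CPM in WT BMDMs and at 5.83, 4.51 and 3.78 CPM in the libraries labelled PHD2cko, and the groups overlapped. Its log2 fold change was 0.46 (SE 0.178, 95% confidence interval 0.07 to 0.84, adjusted p = 0.168), from 45 to 96 counts per library. It was 0.27 without the replicate 1 labelled PHD2cko and 0.65 without WT replicate 2 (adjusted p = 0.520 and 0.0769). Bcl2l1 was at 35.1, 35.1 and 36.7 CPM in WT and at 43.0, 40.0 and 37.8 CPM with the PHD2cko label, without overlap (log2 0.17, adjusted p = 0.454). Mcl1 was at 1144, 1167 and 1188 CPM in the libraries labelled PHD2cko, all below WT, with a log2 fold change of −0.10 (SE 0.0576, 95% confidence interval −0.22 to 0.03, adjusted p = 0.405). The lower end of the interval for this most abundant survival gene was 0.856-fold.

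Among pore formers, Bax was at 128, 133 and 132 CPM in WT and at 117, 123 and 115 CPM in the libraries labelled PHD2cko, without overlap (log2 −0.15, SE 0.0757, adjusted p = 0.325). Bak1 was at 99.9, 95.2 and 99.3 CPM and at 91.5, 91.2 and 94.0 CPM, again without overlap (log2 −0.09, SE 0.0516, adjusted p = 0.401). Both pore formers were thus lower in every library labelled PHD2cko, and neither passed. Of the BH3-only genes, Bbc3 went from 33.1, 31.7 and 33.0 CPM to 29.3, 28.8 and 28.9 CPM (log2 −0.17, SE 0.0711, adjusted p = 0.212). Bcl2l11 (log2 0.05), Bid (0.15) and Bad (−0.06) had adjusted p-values from 0.340 to 0.823, and the widest of their 95% confidence intervals reached from −0.24 to 0.13.

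When the 6 BMDM libraries were fitted without the fibroblast libraries, 5 members passed, Bcl2l1 above and Mcl1, Bax, Bbc3 and Pmaip1 below WT, against 20.6% of all genes in that fit. Fitted with all 12 libraries but without fibroblasts in WT medium replicate 1, Bax (adjusted p = 0.0417) and Pmaip1 passed. The log2 fold changes in the fit of 6 libraries were 0.17 for Bcl2l1, −0.10 for Mcl1, −0.15 for Bax, −0.17 for Bbc3 and −0.38 for Pmaip1, close to those of the fit of 12.

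The same genes were then read in fibroblasts that had received medium from BMDMs with either label. Here 3 of 10 members passed the threshold, against 15.7% of all genes. Bcl2 and Bcl2l11 rose, against 8.93% of all genes, and Bax fell, against 6.75%. The same 3 passed with limma-voom, against 17.0% of all genes, and Mcl1 joined them with DESeq2, against 16.2%. At an unadjusted p under 0.05 there were 6 members, against 29.2% of all genes, and 3 did not overlap, against 31.9%. The median log2 fold change of the members was 0.11, against −0.0046 over all genes.

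Bcl2 had 151, 243 and 165 counts in WT medium and 229, 207 and 258 in PHD2cko medium. After normalisation these were 7.68, 8.81 and 8.72 CPM against 11.77, 11.98 and 12.50 CPM, so that all PHD2cko medium libraries lay above all WT medium libraries. The rise was 1.43-fold (log2 0.52, SE 0.137, adjusted p = 0.0222). Bcl2 passed under all 8 other ways of processing tried, with adjusted p-values from 0.00645 to 0.0354. With each of the 12 libraries left out in turn it passed 10 times, and it missed the threshold without PHD2cko medium replicate 1 (adjusted p = 0.0601) or replicate 3 (adjusted p = 0.0862).

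Bax, which encodes the pore former, went from 83.4, 68.7 and 65.6 CPM in WT medium to 59.6, 53.6 and 59.2 CPM in PHD2cko medium, without overlap. It fell to 0.793-fold (log2 −0.33, SE 0.0784, adjusted p = 0.0127). Replicate 1 in WT medium was the highest of all, and without it the log2 fold change was −0.20 (adjusted p = 0.0188). Bax passed in all 12 fits with a library left out and under 7 of 8 other ways of processing, the exception being the fit of the 6 fibroblast libraries alone (−0.32, adjusted p = 0.0951), which called 6.82% of all genes. Gm45808, a gene on the same strand, shares 192 exonic bases with Bax, and reads there cannot be told apart.

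Bcl2l11, which encodes the BH3-only activator BIM, went from 22.2, 27.8 and 29.7 CPM to 32.2, 33.5 and 30.9 CPM, without overlap. The rise was 1.21-fold (log2 0.28, SE 0.0831, adjusted p = 0.0412). This call was the least stable of the 3, since it held under 5 of 8 other ways of processing and in 2 of 12 fits with a library left out. It was lost with the replicate number as a block (adjusted p = 0.0553, 13.7% of all genes called), in the fit of the 6 fibroblast libraries (adjusted p = 0.158) and with the estimated macrophage share subtracted (log2 0.19, adjusted p = 0.176). The fits that kept it were those without WT medium replicate 1 (0.19, adjusted p = 0.0150) and replicate 3 (0.36, adjusted p = 0.0138), and adjusted p-values in the other 10 were from 0.0545 to 0.106.

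Macrophage transcripts moved with the medium. The estimated share of macrophage RNA, from the 23 markers, was 0.0463, 0.0477 and 0.0483% in WT medium and 2.32, 0.513 and 2.08% in PHD2cko medium replicates 1, 2 and 3. A share of that size would supply at most 0.753% of the Bcl2 CPM and 3.74% of the Bax CPM in PHD2cko medium, but 2.35 to 10.98% of Bcl2l11, 4.72 to 18.9% of Mcl1 and 27.5 to 46.3% of Pmaip1, the genes that were far higher in BMDMs. With the share subtracted, Bcl2 kept its rise (log2 0.55, adjusted p = 0.0194) and Bax its fall (−0.34, adjusted p = 0.0121), against 13.3% of all genes called.

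Mcl1 was at 107, 97.9 and 96.5 CPM in WT medium and at 116, 104 and 113 CPM in PHD2cko medium, with overlapping groups (log2 0.14, SE 0.0592, adjusted p = 0.124). Subtracting the macrophage share turned its direction, to −0.03 (adjusted p = 0.719). Pmaip1 was close to absent, with 7, 16 and 14 counts in WT medium and 18, 6 and 23 in PHD2cko medium. Its log2 fold change of 0.54 had a 95% confidence interval from −0.22 to 1.30 and turned to −0.11 when the share was subtracted. It was 0.22 without PHD2cko medium replicate 3 and 0.86 without replicate 2. In PHD2cko medium, replicate 2 had both the fewest Pmaip1 counts and the smallest macrophage share.

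Among the remaining members, Bbc3 went from 13.6, 11.6 and 11.2 CPM to 10.1, 9.66 and 11.3 CPM, with overlap (log2 −0.22, SE 0.0833, adjusted p = 0.0916, and −0.12 without WT medium replicate 1). Bak1 was at 51.5, 47.5 and 47.1 CPM and at 52.8, 50.04 and 56.6 CPM (log2 0.13, adjusted p = 0.133). Without WT medium replicate 1, Bak1 (0.19, adjusted p = 0.0203) and Mcl1 (0.21, adjusted p = 0.0164) passed the threshold, and Mcl1 also passed without PHD2cko medium replicate 2 (0.19, adjusted p = 0.0387). Bcl2l1 (log2 0.09, 95% confidence interval −0.15 to 0.33), Bid (−0.05, −0.24 to 0.15) and Bad (−0.06, −0.25 to 0.13) had overlapping groups and adjusted p-values from 0.623 to 0.773. Bcl2l1 was at 0.0087 without PHD2cko medium replicate 1 and at 0.24 without WT medium replicate 1.

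**Figure D3:**
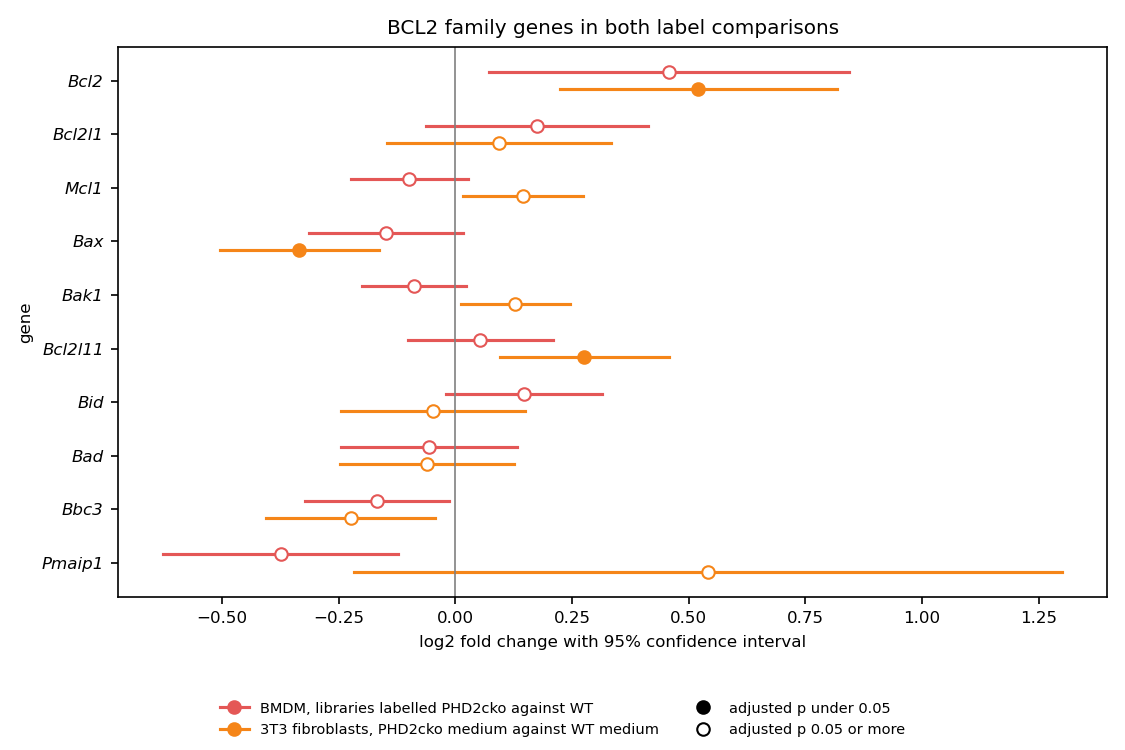
Log2 fold changes of the 10 genes in BMDMs (libraries labelled PHD2cko against WT) and in fibroblasts (PHD2cko medium against WT medium), with 95% confidence intervals as lines and filled points at an adjusted p under 0.05. The filled points are Bcl2, Bax and Bcl2l11 in fibroblasts, and the interval of Pmaip1 in fibroblasts is the widest.

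Within each library, the ratio of Bcl2 to Bax CPM was taken as a description of the balance of these 2 genes. It was from 0.0921 to 0.133 in WT medium and from 0.198 to 0.224 in PHD2cko medium, so the groups did not overlap. In BMDMs it was from 0.0228 to 0.0318 in WT and from 0.0329 to 0.0497 in the libraries labelled PHD2cko. The ratio of Bcl2l1 to Bax was from 0.363 to 0.380 in WT medium and from 0.452 to 0.540 in PHD2cko medium, and from 0.264 to 0.279 in WT BMDMs and 0.325 to 0.366 in the libraries labelled PHD2cko. Both ratios were higher with the PHD2cko label in both cell types. They share Bax as denominator, were chosen after their values were seen, and were not tested. None of Bcl2, Bcl2l1 and Bax passed by edgeR over all libraries in BMDMs, and Bcl2l1 did not pass in fibroblasts. Mcl1 to Bcl2l11 was from 6.84 to 7.01 in WT BMDMs and from 6.13 to 6.34 in the libraries labelled PHD2cko, and in fibroblasts it overlapped, from 3.25 to 4.81 in WT medium and from 3.10 to 3.65 in PHD2cko medium. Mcl1 to Pmaip1 went the other way in BMDMs, from 40.9 to 43.2 in WT and from 48.8 to 55.9 in the libraries labelled PHD2cko. In fibroblasts it was from 130 to 299 in WT medium and from 101 to 299 in PHD2cko medium, on few Pmaip1 counts.

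Whether a member's label difference was itself different between the cell types was tested by an interaction term. None of 10 members passed by edgeR, against 12.3% of all genes, and 3 had an unadjusted p under 0.05, Mcl1, Bak1 and Pmaip1, against 25.3%. DESeq2 and limma-voom each called 1 member, Mcl1, against 13.1% and 11.4%. For Mcl1 the difference of differences was −0.24 (SE 0.0827, adjusted p = 0.0795), for Bak1 −0.22 (SE 0.0745, adjusted p = 0.0821) and for Pmaip1 −0.92 (SE 0.369, adjusted p = 0.138). With the estimated macrophage share subtracted from the fibroblast libraries, it was −0.066 for Mcl1 (adjusted p = 0.621) and −0.26 for Pmaip1 (adjusted p = 0.737). For Bcl2, which was above WT in the mean in both cell types, it was −0.06, with a 95% confidence interval from −0.55 to 0.43. The interval for Bax was −0.05 to 0.42, and that for Bcl2l11 −0.46 to 0.02. Without fibroblasts in WT medium replicate 1, Mcl1 and Bak1 passed, and without PHD2cko medium replicate 2 Mcl1, Bak1 and Pmaip1 passed.

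The other genes of the pathway were read in 7 lists with 71 genes, 64 of them kept by the filter. Among other BCL2 relatives, 2 of 9 tested genes rose in BMDMs labelled PHD2cko and none fell, against 3.38% and 3.35% of all genes, with a median log2 fold change of 0.12. These were the mitophagy receptors Bnip3 (0.85, SE 0.0732, adjusted p = 1.5e-05) and Bnip3l (0.25, SE 0.0410, adjusted p = 0.00272), both known HIF targets. In fibroblasts 2 of 9 rose and 1 fell, against 8.93% and 6.75% of all genes, with a median of 0.19. Of those that rose, Bcl2a1b was kept by the filter through its BMDM counts. It had no value in the fit of the 6 fibroblast libraries, so its place in this count is no support. Bmf, a BH3-only gene, fell from 41.5 ± 0.747 to 30.1 ± 1.72 CPM (log2 −0.46, SE 0.0520, adjusted p = 0.000144), and Bnip3l rose by 0.20 (adjusted p = 0.00626, and 0.0519 in the fit of the 6 fibroblast libraries). Bcl2a1b, a survival gene of blood cells with near-identical copies whose reads may be split, had 0 counts in all WT medium libraries and 30, 8 and 46 in PHD2cko medium, at least 10.4-fold higher against a floor of 3 counts per library. It had 273 to 429 counts in BMDM libraries, and the macrophage share moved with it. Bcl2a1b passed in all 6 other ways of processing that gave it a value, including with the macrophage share subtracted.

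Cytochrome c released from mitochondria assembles the apoptosome, which activates caspases. Of 17 genes described for the apoptosome, caspases and mitochondrial proteins, 0 passed in BMDMs by edgeR, DESeq2 or limma-voom, against 6.73% of all genes by edgeR, with 1 at an unadjusted p under 0.05, against 19.0%, and a median of 0.02. In fibroblasts 1 of these fell and none rose, against 6.75% and 8.93%, with a median of −0.03. This was Htra2, a mitochondrial protease (−0.31, SE 0.0641, adjusted p = 0.00601), which missed the threshold in the fit of the 6 fibroblast libraries (adjusted p = 0.0607) and was −0.22, still past it, without WT medium replicate 1. The genes for the cytochrome c apoptosome itself, Cycs (−0.03), Apaf1 (0.04) and Casp9 (−0.06), had adjusted p-values from 0.609 to 0.885.

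The inhibitors of apoptosis were read next, together with the death receptor arm, which activates caspase-8 from outside the cell. Of 5 inhibitors, Birc3 fell in BMDMs labelled PHD2cko (−0.30, SE 0.0564, adjusted p = 0.00566), against 3.35% of all genes lower, with a list median of −0.05, and none passed in fibroblasts by edgeR, DESeq2 or limma-voom, against 15.7% of all genes by edgeR. There 2 had an unadjusted p under 0.05, against 29.2%, and the median was 0.15. Of 9 genes of the death receptor arm, Fas, the receptor of FAS ligand, and Cflar, the brake on caspase-8, fell in BMDMs labelled PHD2cko, again against 3.35%, with a list median of −0.06. Fas was at 13.1 ± 0.338 CPM in WT and 8.66 ± 0.793 CPM with the PHD2cko label (log2 −0.60, SE 0.128, adjusted p = 0.0133), and Cflar fell by 0.25 on the log2 scale (adjusted p = 0.0220). Fas was lost without WT replicate 1 or the replicate 1 labelled PHD2cko, and Cflar without any single BMDM library. In fibroblasts Casp8 rose (0.30, SE 0.0468, adjusted p = 0.000958) and the death receptor gene Tnfrsf10b fell (−0.27, SE 0.0608, adjusted p = 0.01001), against 8.93% and 6.75% of all genes, with a list median of 0.07. Tnfrsf10b missed the threshold in the fit of the 6 fibroblast libraries (adjusted p = 0.0574) and without PHD2cko medium replicate 1 (adjusted p = 0.0541).

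The 7 lists differ in size and were chosen with earlier results of these data known. Their counts of calls are thus not independent of the data. The list of p53 and its targets held the most calls in both cell types. In PHD2cko medium 9 of its 12 tested genes fell and none rose, with a median log2 fold change of −0.27, against −0.0046 over all genes, of which 6.75% were called lower. Trp53inp1 fell most (−0.69, SE 0.0789, adjusted p = 0.000151), followed by Ccng1 (−0.57, SE 0.0431, adjusted p = 1.7e-05) and Cdkn1a (−0.53, SE 0.0621, adjusted p = 0.000198), which encodes the cell cycle inhibitor p21. Ccng1, a standard p53 target, was at 254 ± 6.56 CPM in WT medium and 171 ± 5.18 CPM in PHD2cko medium. Eda2r (−0.42), Zmat3 (−0.39) and Phlda3 (−0.30) followed, and the other 3 were Aen, Sesn2 and Mdm2, of which Sesn2 was lost in 3 and Mdm2 in 8 of 12 fits with a library left out and Aen in 1. Without WT medium replicate 1, Phlda3 was at −0.19, still past the threshold, and it was lost without PHD2cko medium replicate 1 or 3 (adjusted p = 0.0639 and 0.0670). Eda2r passed in 4 of 7 other ways of processing and in 7 of 12 fits with a library left out, and was lost without WT medium replicate 2 or 3 or any PHD2cko medium replicate, with adjusted p-values from 0.0684 to 0.115. Trp53 itself was at a log2 fold change of 0.07 (adjusted p = 0.338). All 9 kept their direction in the fits with a library left out, while the number past the threshold ranged from 4, without PHD2cko medium replicate 3, to 9, and was 5 in the fit of the 6 fibroblast libraries alone.

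In BMDMs labelled PHD2cko 4 genes of this list fell and 1 rose, against 3.35% and 3.38% of all genes, with a median of −0.05. Those that fell were Zmat3 (−0.34), Aen (−0.26), Sesn2 (−0.25) and Cdkn1a (−0.24), and Sesn1 rose (0.19, adjusted p = 0.0367). The calls kept in BMDMs were 0 without WT replicate 1 or the replicate 2 labelled PHD2cko, 1 without replicate 1 or 3 labelled PHD2cko, 2 without WT replicate 2 or 3, and 3 to 5 without a fibroblast library. The members that p53 is known to activate, Bax, Bbc3 and Pmaip1, were at −0.15, −0.17 and −0.37 in BMDMs. None of them passed by edgeR over all 12 libraries, while the other tools and the fit of 6 libraries made the calls given above. Whether p53 had a part was not tested. In fibroblasts Bax fell, Bbc3 was at −0.22 and Pmaip1 at 0.54 without passing.

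**Figure D4:**
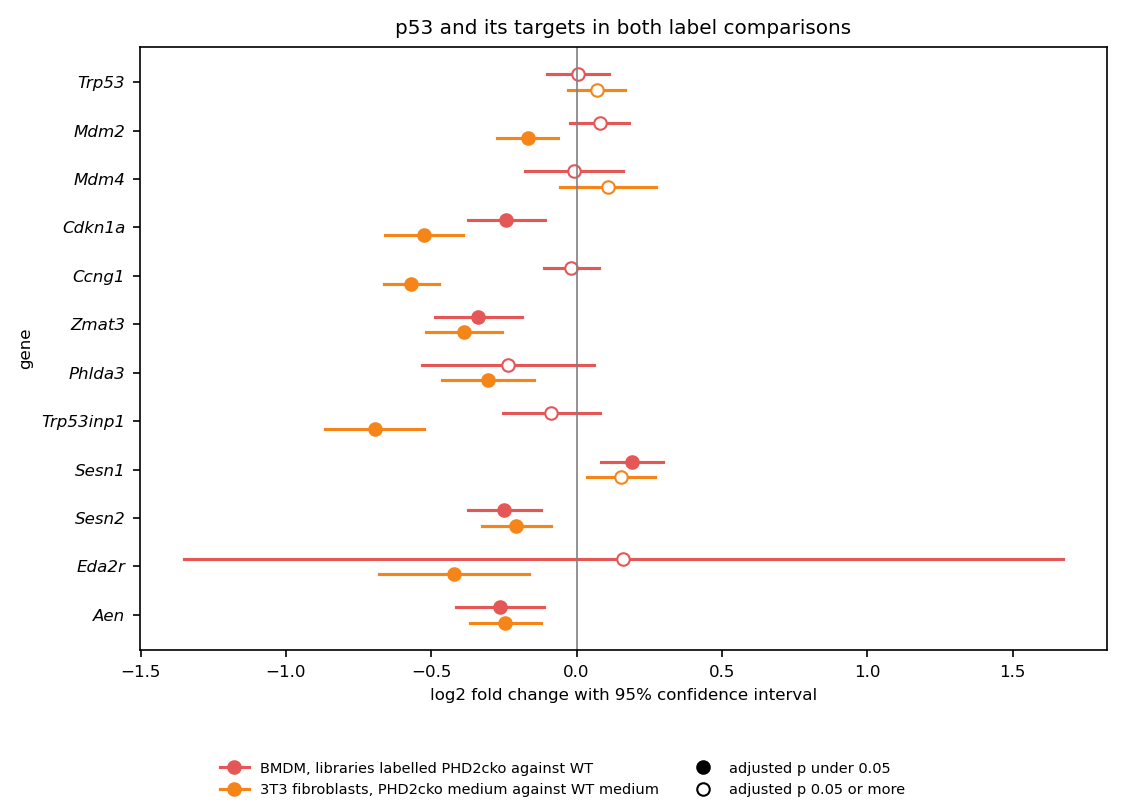
Log2 fold changes of the 12 tested genes of the list of p53 and its targets in both label comparisons, with 95% confidence intervals as lines and filled points at an adjusted p under 0.05. In fibroblasts 9 points are filled and all lie below 0, from −0.69 for Trp53inp1 to −0.17 for Mdm2.

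Of the 7 FOXO and stress response regulators, which include factors known to act on Bcl2l11 and Bbc3, the stress gene Chac1 fell in BMDMs labelled PHD2cko from 1.39 ± 0.0452 to 0.514 ± 0.197 CPM (log2 −1.41, SE 0.358, adjusted p = 0.0338), against 3.35% of all genes lower, with a list median of −0.08. Chac1 was not called by limma-voom or in 5 of 12 fits with a library left out, those without WT replicate 1, 2 or 3 or the replicate 2 or 3 labelled PHD2cko. In fibroblasts Atf3 rose (0.80, SE 0.219, adjusted p = 0.0268) with overlapping groups and turned to −0.56 when the macrophage share was subtracted, and Ddit3, which encodes CHOP, fell (−0.40, SE 0.0646, adjusted p = 0.00123), against 8.93% of all genes higher and 6.75% lower, with a list median of −0.08. Atf3 was also lost in the fit of the 6 fibroblast libraries and without WT medium replicate 2 or 3 or PHD2cko medium replicate 1 or 3. None of the 5 genes of MCL1 turnover passed in either cell type by edgeR or limma-voom, against 6.73% of all genes in BMDMs and 15.7% in fibroblasts by edgeR, with 2 at an unadjusted p under 0.05 in each, against 19.0% and 29.2%, 1 called by DESeq2 in fibroblasts and none in BMDMs, and medians of −0.03 in both.

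**Figure D5:**
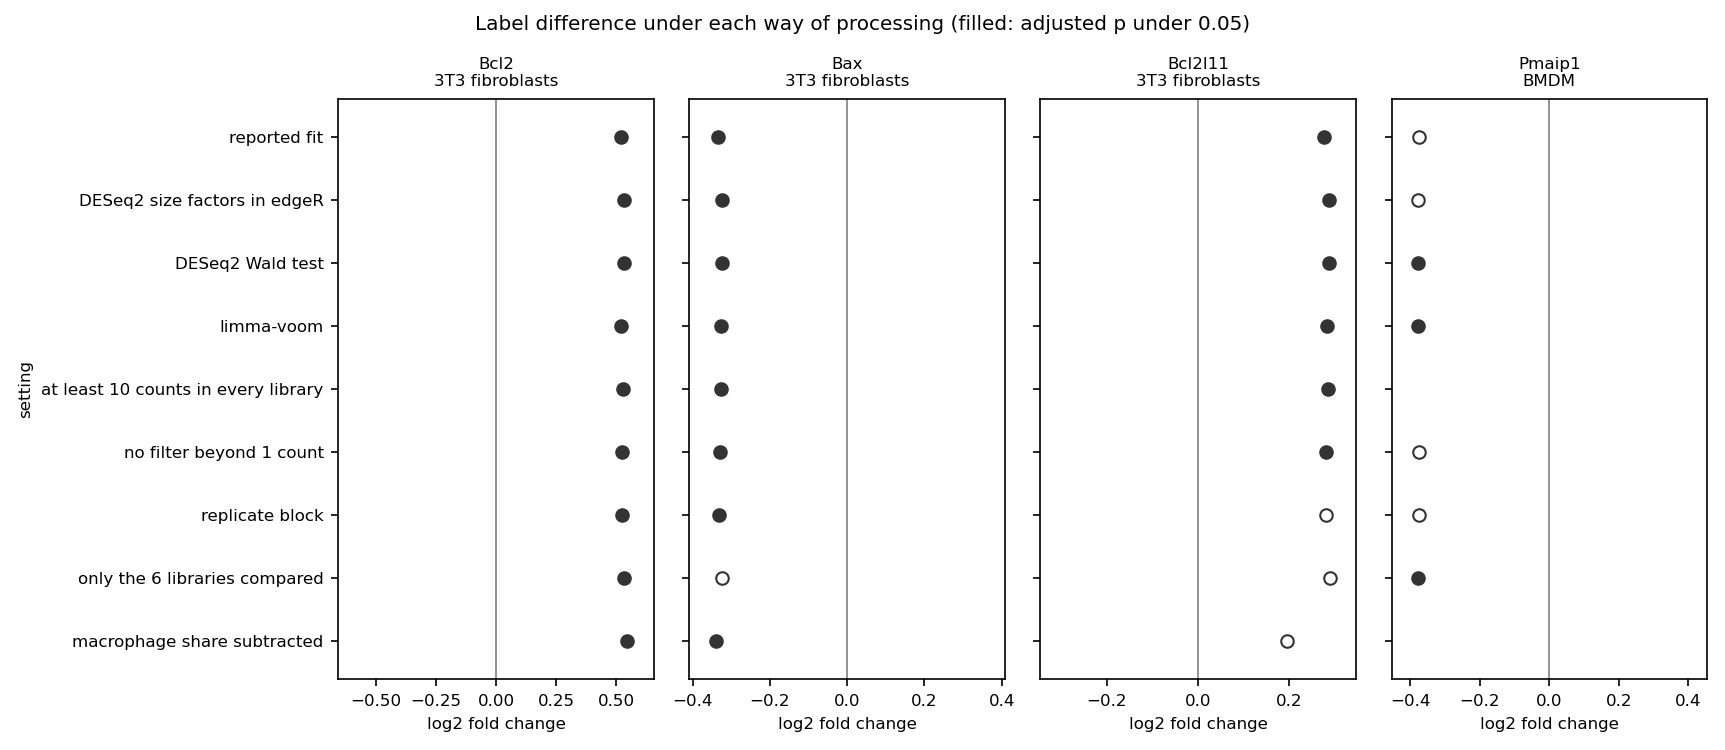
Log2 fold changes of Bcl2, Bax and Bcl2l11 in fibroblasts and of Pmaip1 in BMDMs in the reported fit and under each other way of processing, filled where the adjusted p was under 0.05 and left out where a setting gave no value. Bcl2 is filled throughout, and Pmaip1 stays near −0.37 while its call changes with the test.

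The genes whose profile over the 12 libraries was most like a member's were found by the root mean square difference of centred log2 CPM among 14275 genes. The nearest to Bcl2 was E2f7 (0.128), followed by Mybl2 (0.134). Rfc2 was nearest to Bak1 (0.0355), Pkig to Bbc3 (0.0421), Znrf2 to Mcl1 (0.0435), Gins4 to Bcl2l1 (0.0665) and Ddt to Bax (0.0684). Rab7b was nearest to Bcl2l11 (0.0742), Atp6v0e to Bid (0.0811) and Nol4l to Pmaip1 (0.231). The 12 libraries hold both cell types, so a gene with a like difference between cell types scores as near.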

How the data were processed

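RNA had been sequenced from 12 mouse libraries in 4 groups of 3, grouped and numbered by the labels. The authors deposited estimated counts per gene, made with kallisto on GRCm38 (its version not given in the sources used here), as whole numbers without normalization; reads shared by similar transcripts are divided by estimate. Genes were kept by filterByExpr, normalized by TMM and fitted over all 12 libraries with the two-sided quasi-likelihood test of edgeR 4.0.16 in R 4.3.3, at a Benjamini-Hochberg adjusted p under 0.05. Alternatives were DESeq2 1.42.0, its size factors, limma-voom (limma 3.58.1, the tool of the study), 2 other filters, a replicate block, the 6 libraries compared, each library left out, and subtraction of a macrophage share from fibroblast libraries, estimated from 23 markers and the BMDM libraries of the same label. Scripts were tested on simulated data. Members and lists were chosen with earlier results of these data known. All members were named and, per list and comparison, up to 6 genes past the threshold by size. Aen, Sesn2 and Mdm2 in fibroblasts, Cycs, Apaf1, Casp9, Trp53 and the ratios were chosen after their values were seen. Strand of counting was not stated, and Bak1, Bid and Bad share 614, 628 and 524 exonic bases with genes on the other strand. A gene of the apoptosome list and the gene nearest in profile to Bad are not reported here. Positions are from GENCODE on GRCm38. The floor of 3 counts covers counting error only.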

Additional observations from a re-analysis of the deposited data

Results flagged for a closer look

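Of 74 listed genes tested, 12 had a label difference that differed between BMDMs and fibroblasts by the interaction term at an adjusted p under 0.05 (edgeR), against 12.3% of all genes, and none of the 10 members was among them. Values are the log2 difference in BMDMs minus that in fibroblasts. It was above 0 for Bnip3 (0.64), Trp53inp1 (0.61), Ccng1 (0.55), Bmf (0.39), Htra2 (0.33), Btrc (0.29) and Mdm2 (0.25). It was below 0 for Bcl2a1b (−7.36), Fas (−0.67), Birc3 (−0.52), Cflar (−0.42) and Casp8 (−0.38). Bcl2a1b was at 0 counts in all WT medium libraries, so its value depends on the prior count and is no measure of size. With the estimated macrophage share subtracted from the fibroblast libraries, all 12 kept their direction and 10 passed the threshold, the others being Birc3 (−0.36, adjusted p = 0.0802) and Btrc (0.27, adjusted p = 0.0725). Directions also held under the other 6 ways of processing, of which a minimum of 10 counts gave no value for Bcl2a1b, and in the 12 fits with a library left out, but some calls did not. Btrc (adjusted p = 0.0498 as reported) passed in 1 of 7 other ways of processing, limma-voom, and in 1 of 12 fits with a library left out, that without WT medium replicate 1. Fas passed in 3 of 12 such fits, those without the BMDM replicate 2 labelled PHD2cko, WT medium replicate 1 or PHD2cko medium replicate 2, with adjusted p-values up to 0.0901 in the others, and missed the threshold with the replicate block (adjusted p = 0.0521). Mdm2 passed in 4 of 12, without the BMDM replicate 1 labelled PHD2cko, WT medium replicate 1 or 2, or PHD2cko medium replicate 1, with adjusted p-values up to 0.0700 in the others, and missed it with no filter (adjusted p = 0.0826). Htra2 passed in 5 of 12, without WT BMDM replicate 2, any WT medium replicate or PHD2cko medium replicate 3, with adjusted p-values up to 0.0854 in the others. The other 8 passed in all 12.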

How the results depend on the processing

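Members past the threshold in BMDMs were 0 as reported, 1 with DESeq2, 1 with limma-voom, 5 with the 6 libraries compared and 0 to 2 with a library left out (2 without WT medium replicate 1). In fibroblasts they were 3, 1 with the 6 libraries compared and 1 to 5 with a library left out (1 without PHD2cko medium replicate 1 or 3, 5 without WT medium replicate 1). For the difference between cell types they were 0, 1 with DESeq2, 1 with limma-voom, 2 with a minimum of 10 counts and 0 to 3 with a library left out (2 without WT medium replicate 1, 3 without PHD2cko medium replicate 2). Over all genes, calls in BMDMs went from 961 to 2534 with the 6 libraries compared and ranged from 527 to 1889 with a library left out (527 without WT BMDM replicate 1, 1889 without WT medium replicate 1), and in fibroblasts from 2240 to 912, and from 1260 (without PHD2cko medium replicate 3) to 2757. Directions turned in fibroblasts with the macrophage share subtracted for Mcl1 (−0.034), Pmaip1 (−0.11) and Atf3 (−0.56), and with a library left out for Bid (−0.11 to 0.028) and Bad (−0.12 to 0.055). In the difference between cell types Bad, near 0, turned under DESeq2 size factors (−0.010), DESeq2 (−0.0093), limma-voom (−0.00055), a minimum of 10 counts (−0.011), no filter (−0.0011) and the subtracted share (−0.0070). With a library left out, directions there turned for Bad (−0.11 to 0.064), Bcl2 (−0.25 to 0.13), Bcl2l1 (−0.065 to 0.17) and Bbc3 (−0.053 to 0.13). The cause was not tested. Same-numbered libraries did not deviate together over all genes (correlations of −0.11 to 0.026). This cannot exclude a pairing with small effects, and the labels do not say what the numbers mean. With the number as a replicate block, 2 members passed in fibroblasts (Bcl2l11 was lost), 0 in BMDMs, 10 between cell types and 0 for the difference, and 815 and 1953 genes passed in BMDMs and fibroblasts. Pmaip1 in fibroblasts rests on 6 to 23 counts per library.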
